A study of Homo sapiens with 12 samples.

Results

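The genes described here encode proteins of the mitochondrial ribosome and of the mitochondrial protein import machinery. They are the genes whose single annotated symbol begins with MRPL, MRPS, TIMM or TOMM followed by a digit, without TOMM20, and they were chosen by symbol and not by measured value. The rule found 24 of the 8545 genes on the arrays. There were 3 TOMM genes, 4 TIMM genes, 11 MRPL genes and 6 MRPS genes. Where a gene had several probe sets, the one with the highest mean over all arrays stood for it.

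The mitochondrial ribosome translates the few proteins encoded in mitochondrial DNA, all of them parts of oxidative phosphorylation, and its own proteins are made in the cytosol from nuclear genes. Those proteins, like most other mitochondrial proteins, enter through the TOM complex of the outer membrane and are sorted by the TIM complexes and small chaperones behind it. Parkin, the ubiquitin ligase encoded by PARK2, acts downstream of the kinase PINK1, which gathers at the TOM complex when import through the inner membrane fails.

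Gene expression was measured in 2 established human glioma cell lines, SNB19 and SF539, 48 h after siRNA transfection with a lipid reagent. In each line there were 3 groups of 2 arrays. They carried PARK2 siRNA1, PARK2 siRNA2, or a scramble siRNA as the control. All 12 arrays therefore come from transfected cells, and none is of untransfected cells. PARK2 itself is not analysed here, and no check of the knockdown was made. Nothing in the labels ties the replicates of a group to separate cultures. The p-values therefore measure only the spread between these arrays, possibly a technical one, and the small number of arrays limits the precision. In bulk RNA, fewer cells of a kind and less RNA per cell cannot be told apart.

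Values are on the log2 scale. Array medians lay between 5.94 and 6.14. The members lay between 6.15 and 12.1, above the lower quartile of all gene values, which was 4.35. Of the 9 glial markers measured, 7 lay above that quartile in every SNB19 array and 4 in every SF539 array, and the glial markers GFAP, S100B and FABP7 lay below it in every SF539 array. A gene was called when the adjusted p was under 0.05 in a limma fit to all genes, with Benjamini-Hochberg adjustment. The PARK2 effect in a line is the mean of both PARK2 siRNAs minus scramble.

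One pair of replicate arrays stood apart, and from 2 arrays it cannot be told which of them is the unusual one. In SF539 siRNA2, replicate 2 was lower than replicate 1 for 22 of the 24 members, with a median difference of -0.27 and a range of -0.75 for MRPL23 to 0.16 for MRPL33. Over all genes the median difference in that pair was -0.0033, and 50.5% of genes were lower in replicate 2. In the other 5 groups between 8 and 12 members were lower in replicate 2. The median SD of the members between replicates was 0.193 in this pair, against 0.0286 to 0.0463 elsewhere. Over all genes the spread of the pair was wider too, with a median SD of 0.132, against 0.0616 to 0.0852 elsewhere. Counts of called members that rest on siRNA2 in SF539, and the members' medians within SF539, are therefore also given below without each of its arrays. Counts by array overlap or by unadjusted p were not repeated this way, and neither were those of the gene lists.

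**Figure D1:**
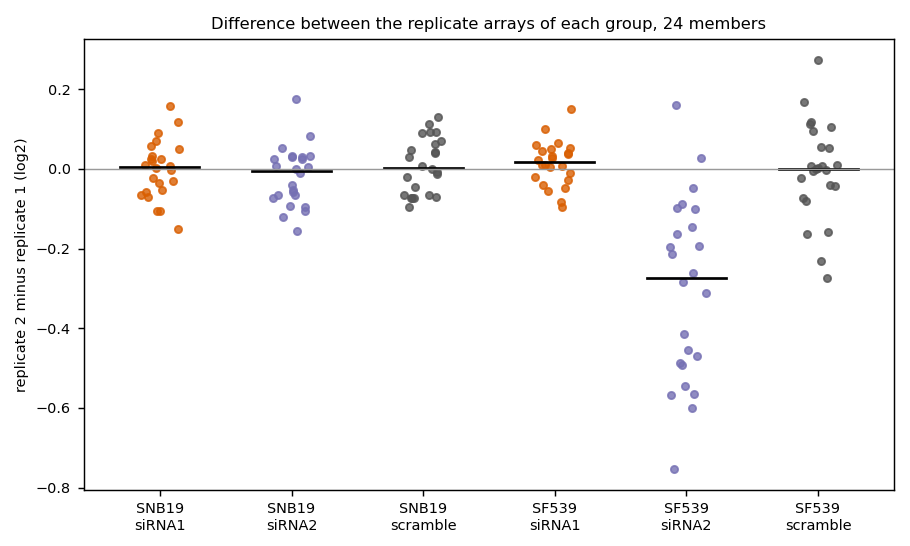
Difference between the replicate arrays (replicate 2 minus replicate 1, log2) of each of the 6 groups, 1 point per member and a bar at the median. The SF539 siRNA2 points lie below 0 for 22 of 24 members, with a median of -0.27.

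The first question was how these genes responded to the PARK2 siRNAs in SNB19. Of the 24 members, 5 rose and 2 fell with the PARK2 siRNAs, and 17 were not called. Over all 8545 genes 32.8% were called, 15.5% higher and 17.4% lower, so the members' share, 29.2%, was near the background. The members' median change was 0.03, against -0.01 over all genes. In 9 members all PARK2 siRNA arrays lay above both scramble arrays, against 24.2% of all genes, and in 5 they lay below, against 26.4%. The called members were MRPS27, MRPL33, TIMM8A, MRPL3 and MRPL19 among the higher and MRPL49 and MRPS12 among the lower.

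In the outer membrane complex none of the 3 TOMM genes was called by limma in SNB19. By its brightest probe set, none had an unadjusted p under 0.05. TOMM40, the import channel, had 8.12 and 7.97 with siRNA1 and 8.09 and 8.08 with siRNA2, against 7.88 and 7.81 with scramble. All its PARK2 siRNA arrays lay above both scramble arrays, but the difference of 0.22 was not called (limma adjusted p = 0.273). TOMM34, a cytosolic cochaperone of import, had 8.46 and 8.35 with siRNA1 and 8.25 and 8.28 with siRNA2, against 8.57 and 8.59 with scramble. It did not overlap either, on the lower side, with a difference of -0.24 (limma adjusted p = 0.219). TOMM70, a receptor for carrier proteins, overlapped between the groups and differed by 0.09. A dimmer second TOMM70 probe set, fitted on its own, differed by 0.30 ± 0.11 and was not called (SE, limma adjusted p = 0.0711). All its PARK2 siRNA arrays lay above both scramble arrays.

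In the inner membrane and intermembrane space group 1 of 4 TIMM genes was called. TIMM8A encodes a small chaperone of the intermembrane space, and its loss causes a deafness and dystonia syndrome. It had 6.64 and 6.76 with siRNA1 and 7.04 and 6.92 with siRNA2, against 6.15 and 6.19 with scramble. All PARK2 siRNA arrays were above both scramble arrays, and the rise was 0.67 ± 0.08 (SE, 2 arrays per group), a 1.59-fold change (limma adjusted p = 0.000116). A dimmer second probe set of TIMM8A, with a mean of 2.53 near the bottom of the scale, gave -0.10 (limma adjusted p = 0.522). TIMM17A and TIMM17B, alternative core subunits of the TIM23 translocase, differed by 0.03 and 0.16, and TIMM44, which tethers the import motor to that translocase, by -0.03.

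Of the 11 large subunit genes 3 rose and 1 fell. MRPL33 had 11.77 and 11.77 with siRNA1 and 11.81 and 11.76 with siRNA2, against 11.13 and 11.06 with scramble. Every PARK2 siRNA array was higher, and the rise was 0.68 ± 0.07, or 1.60-fold (SE, limma adjusted p = 7.14e-05). MRPL3 had 11.60 and 11.60 with siRNA1 and 11.67 and 11.67 with siRNA2, against 11.03 and 11.01 with scramble. It rose by 0.62 ± 0.07, or 1.53-fold (SE, limma adjusted p = 0.000116), again with no overlap.

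MRPL19 had 9.72 and 9.88 with siRNA1 and 9.85 and 10.03 with siRNA2, against 9.39 and 9.52 with scramble. Its groups did not overlap, but its replicates were spread more widely, and the rise was 0.42 ± 0.12 (SE, limma adjusted p = 0.0272). Without either scramble array, siRNA1 replicate 2 or siRNA2 replicate 2, MRPL19 was no longer called (limma adjusted p = 0.0717 to 0.185). MRPL49, a subunit with no counterpart in the bacterial ribosome, went the other way. It had 9.48 and 9.57 with siRNA1 and 9.53 and 9.56 with siRNA2, against 10.23 and 10.23 with scramble. It fell by 0.69 ± 0.08, to 0.618 of the scramble level (SE, limma adjusted p = 0.000145), and the groups lay far apart.

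Among the large subunit genes not called, MRPL23 had the widest difference, 0.36 ± 0.16 (SE, limma adjusted p = 0.123), with all PARK2 siRNA arrays above both scramble arrays. MRPL58, which releases stalled mitochondrial ribosomes, differed by -0.14, also without overlap. MRPL12, which also binds the mitochondrial RNA polymerase, differed by 0.01. MRPL9, MRPL28, MRPL40 and MRPL57 differed by -0.05 to 0.15.

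Of the 6 small subunit genes 1 rose and 1 fell. MRPS27, an RNA-binding pentatricopeptide repeat protein, had 9.12 and 9.09 with siRNA1 and 9.32 and 9.27 with siRNA2, against 8.53 and 8.44 with scramble. It had the largest rise among the members in SNB19, 0.72 ± 0.08 or 1.64-fold (SE, limma adjusted p = 7.26e-05), with no overlap. MRPS12, a protein of the decoding site, had 10.11 and 10.16 with siRNA1 and 10.41 and 10.46 with siRNA2, against 10.59 and 10.52 with scramble. It fell by 0.27 ± 0.08 (SE, limma adjusted p = 0.0234), with the siRNA2 arrays closer to scramble than the siRNA1 arrays. Its call was lost when every array was centred on its median (limma adjusted p = 0.194) and without either scramble array, siRNA1 replicate 1 or siRNA2 replicate 1 (limma adjusted p = 0.0645 to 0.158). MRPS31 had 8.20 and 8.25 with siRNA1 and 8.55 and 8.57 with siRNA2, against 8.64 and 8.73 with scramble, and its difference of -0.30 ± 0.13 was not called (SE, limma adjusted p = 0.112). A dimmer second MRPS31 probe set, fitted on its own, differed by -0.37 ± 0.12 (SE, limma adjusted p = 0.048). All its PARK2 siRNA arrays lay below both scramble arrays. MRPS11, MRPS14 and MRPS18B differed by -0.09 to -0.05.

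**Figure D2:**
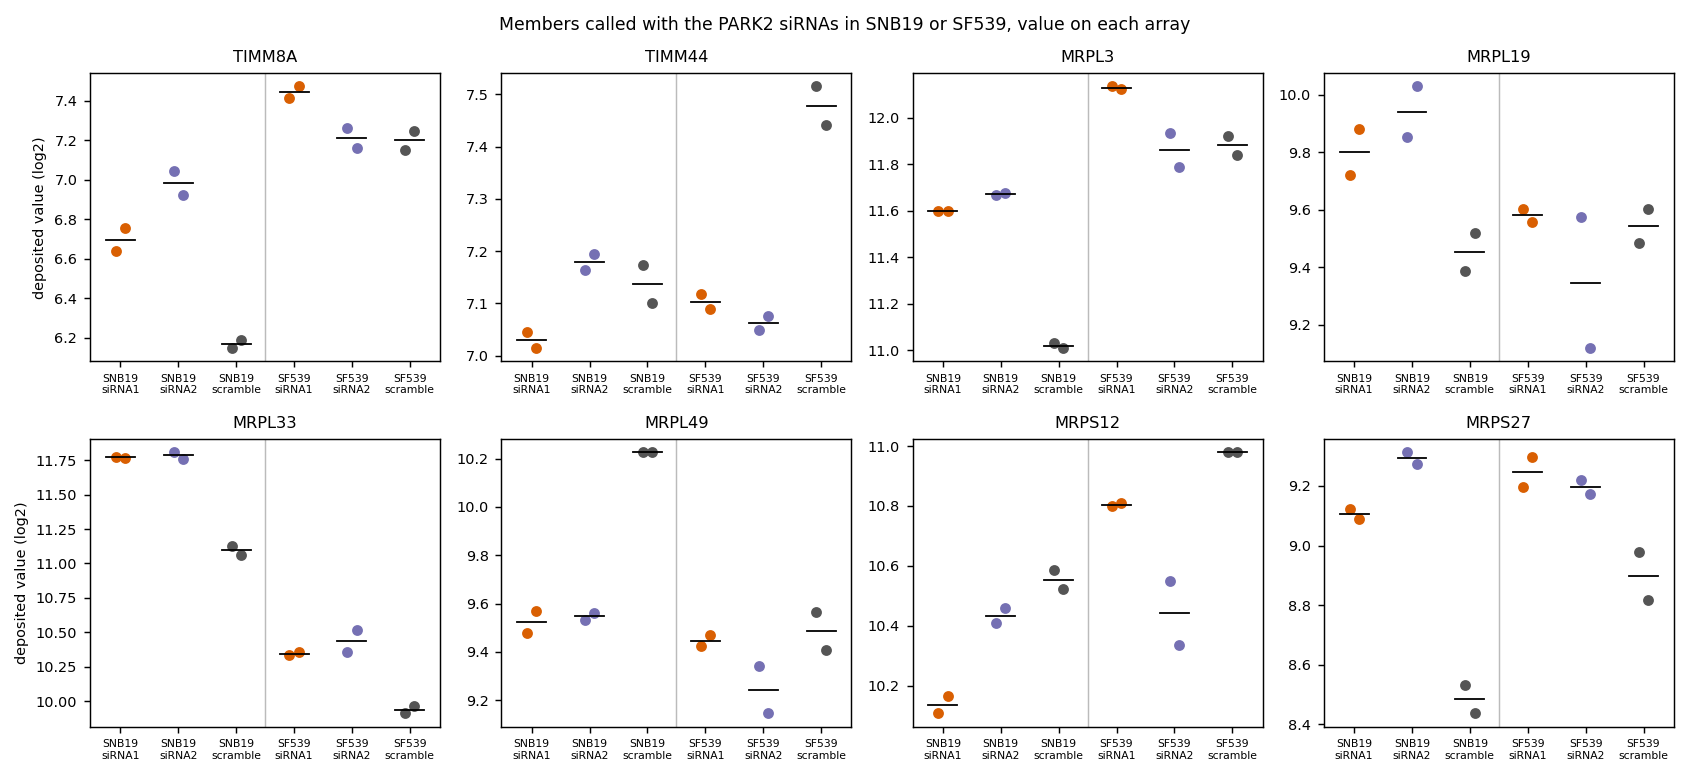
Log2 value on every array of the members called for the PARK2 effect in either line, with each group's 2 replicates as points. In SNB19 all MRPL33, MRPL3, MRPS27 and TIMM8A points of both PARK2 siRNAs lie above the scramble points, and all MRPL49 points lie below them.

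The SNB19 groups also differed in genes that are not members. The interferon-induced gene IFI27 had 3.99 and 3.97 with siRNA1 and 4.75 and 4.49 with siRNA2, against 12.94 and 12.98 with scramble. In SF539 it lay between 12.7 and 12.9 in every group. The summed log2 level of the 9 glial markers in SNB19 was 81.1 to 81.3 with siRNA1 and 83.2 to 83.6 with siRNA2, against 75.9 to 76.9 with scramble. That of the 6 endothelial markers was 26.4 to 26.5 with siRNA1 and 25.4 to 25.5 with siRNA2, against 24.03 to 24.06 with scramble. That of the 8 epithelial markers was 38.5 to 39.4 with siRNA1 and 37.3 to 37.5 with siRNA2, against 38.4 to 39.2 with scramble. The part of these differences in the members' results was not tested.

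The same question was asked in SF539. With the PARK2 siRNAs 2 of the 24 members rose and 2 fell. Over all genes 9.82% were called, 5.8% higher and 4.01% lower, and the members' share was 16.7%. The members' median change was -0.09, against -0.02 over all genes. It was -0.19 without siRNA2 replicate 1 and 0.01 without siRNA2 replicate 2, against -0.02 and -0.01 over all genes, so its sign rests on replicate 2. In 3 members all PARK2 siRNA arrays lay above both scramble arrays, against 13.7% of all genes, and in 3 they lay below, against 14.5%. The summed log2 level of the 8 epithelial markers in SF539 was 37.4 to 37.6 with siRNA1 and 36.3 to 36.7 with siRNA2, against 37.4 to 37.5 with scramble. That of the 9 glial markers was 54.3 to 54.6 with siRNA1 and 55.3 to 56.2 with siRNA2, against 55.2 to 55.8 with scramble. That of the 8 leukocyte markers was 34.8 to 35.1 with siRNA1 and 34.3 to 34.6 with siRNA2, against 33.6 to 34.7 with scramble. The part of these differences in the members' results was not tested. For the PARK2 effect no TOMM gene was called by limma in SF539, and none had an unadjusted p under 0.05. With siRNA2 alone TOMM34 differed by -0.47, TOMM40 by -0.45 and TOMM70 by 0.14. None was called (limma adjusted p = 0.0748, 0.0889 and 0.39), though TOMM34 and TOMM40 had an unadjusted p under 0.05.

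MRPL33 had 10.33 and 10.36 with siRNA1 and 10.36 and 10.52 with siRNA2, against 9.91 and 9.96 with scramble. All PARK2 siRNA arrays were higher, and the rise was 0.45 ± 0.07 or 1.37-fold (SE, limma adjusted p = 0.00459). MRPS27 had 9.20 and 9.30 with siRNA1 and 9.22 and 9.17 with siRNA2, against 8.98 and 8.82 with scramble. It rose by 0.32 ± 0.08 or 1.25-fold without overlap (SE, limma adjusted p = 0.0266).

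TIMM44 had 7.12 and 7.09 with siRNA1 and 7.05 and 7.08 with siRNA2, against 7.52 and 7.44 with scramble. Its arrays did not overlap, and it fell by 0.40 ± 0.07 (SE, limma adjusted p = 0.00581). A second probe set of TIMM44 gave 0.08 in the same comparison (limma adjusted p = 0.699), and the mean of both probe sets gave -0.16 (limma adjusted p = 0.205). MRPS12 had 10.80 and 10.81 with siRNA1 and 10.55 and 10.34 with siRNA2, against 10.98 and 10.98 with scramble. It fell by 0.36 ± 0.08 (SE, limma adjusted p = 0.0192), again with no overlap.

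Without siRNA2 replicate 1, 11 members were called in SF539, 2 higher and 9 lower, against 23.1% of all genes in that fit. Without siRNA2 replicate 2, 5 were called, against 16.1% of all genes. MRPL33, MRPS27, TIMM44 and MRPS12 were called in both of these fits. Without either scramble array or either siRNA1 array the count was 2, against 4.34% to 5.71% of all genes. MRPS27 lost its call without scramble replicate 2 or either siRNA1 array (limma adjusted p = 0.0518 to 0.172), MRPS12 without any of the scramble or siRNA1 arrays (limma adjusted p = 0.0567 to 0.102), and TIMM44 without scramble replicate 1 (limma adjusted p = 0.0541). MRPS27 was also lost with median centring (limma adjusted p = 0.0539) and array weights (limma adjusted p = 0.069), and MRPS12 with the mean of its probe sets (limma adjusted p = 0.0507). When only the SF539 arrays were fitted, 0 members were called, against 1.93% of all genes.

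MRPL12 had 10.33 and 10.34 with siRNA1 and 10.12 and 9.64 with siRNA2, against 10.52 and 10.53 with scramble. The 4 PARK2 siRNA arrays lay below both scramble arrays, but the difference of -0.42 ± 0.12 was not called (SE, limma adjusted p = 0.0508). It was -0.54 without siRNA2 replicate 1 (limma adjusted p = 0.000354) and -0.29 without siRNA2 replicate 2 (limma adjusted p = 0.0103), called in both. TIMM8A, MRPL3 and MRPL49, all called in SNB19, differed in SF539 by 0.13, 0.12 and -0.14 and were not called (limma adjusted p = 0.319 to 0.348).

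**Figure D3:**
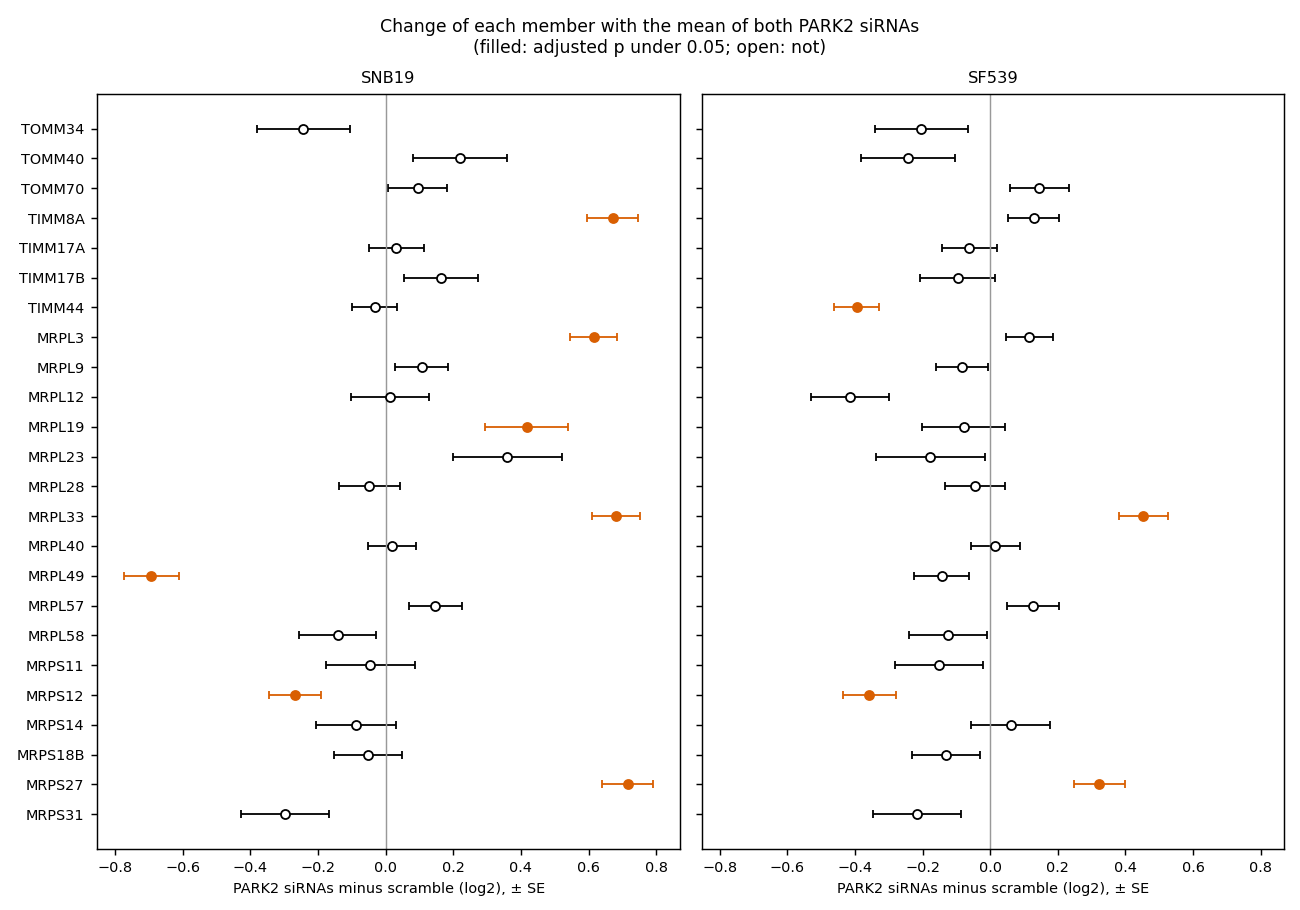
PARK2 effect (mean of both PARK2 siRNAs minus scramble, log2, with SE bars) of the 24 members in each line, with filled points for called members. MRPL33 and MRPS27 lie above 0 and MRPS12 lies below 0 with filled points in both lines.

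The difference of the PARK2 effect between the lines, SF539 minus SNB19, was tested in the same fit. It was called for 5 of 24 members, 1 higher and 4 lower in SF539, against 19.1% of all genes, 10.8% higher and 8.3% lower. The difference was -0.54 ± 0.11 for TIMM8A (SE, limma adjusted p = 0.00686) and -0.50 ± 0.10 for MRPL3 (SE, limma adjusted p = 0.00673). It was -0.39 ± 0.11 for MRPS27 (SE, limma adjusted p = 0.03), which rose in both lines and less in SF539. It was -0.36 ± 0.09 for TIMM44 (SE, limma adjusted p = 0.023) and 0.55 ± 0.12 for MRPL49 (SE, limma adjusted p = 0.00906). For MRPL33 it was -0.23 and not called (limma adjusted p = 0.153), and for MRPS12 it was -0.09. The TIMM8A call was lost with the mean of its probe sets (limma adjusted p = 0.157) and the MRPL49 call with median centring (limma adjusted p = 0.0506). The TIMM44 call was lost with the mean of its probe sets (limma adjusted p = 0.304) and without any of 6 arrays (limma adjusted p = 0.0537 to 0.0966), namely both SNB19 scramble arrays, SNB19 siRNA1 replicate 1, SNB19 siRNA2 replicate 2, SF539 scramble replicate 1 and SF539 siRNA1 replicate 2. The MRPS27 call was lost without any SNB19 array, SF539 scramble replicate 1 or SF539 siRNA1 replicate 1 (limma adjusted p = 0.0573 to 0.118). The count of called members was 10 without SF539 siRNA2 replicate 1 and 11 without replicate 2, against 31.4% and 27.4% of all genes. It was 3 without either SNB19 scramble array, SNB19 siRNA1 replicate 1, SNB19 siRNA2 replicate 2 or SF539 scramble replicate 1. With every array centred on its median it was 10, all of them lower in SF539. Over all genes 24.5% were then called, and only 27.6% of those were higher.

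Each siRNA was also set against the same scramble arrays. In SNB19 siRNA1 gave 4 higher and 3 lower members, against 26.1% of all genes called, 12.4% higher and 13.7% lower. There siRNA2 gave 5 higher and 1 lower, against 29.7%, 13.9% higher and 15.8% lower. TIMM8A, MRPL3, MRPL33 and MRPS27 were higher and MRPL49 lower with each siRNA. The TIMM8A call for siRNA1 was lost with the mean of its probe sets (limma adjusted p = 0.0661). MRPL19 was higher with siRNA2, and MRPS12 and MRPS31 were lower with siRNA1, by -0.42 and -0.47. The second MRPS31 probe set, fitted on its own, differed by -0.52 with siRNA1 (limma adjusted p = 0.0237). The MRPS31 call was lost without any array except those of SF539 siRNA2 (limma adjusted p = 0.0544 to 0.18), with the replicate block (limma adjusted p = 0.061) and with median centring (limma adjusted p = 0.105). That of MRPS12 was lost without replicate 1 of scramble or of siRNA1 (limma adjusted p = 0.0518 to 0.0526), and that of MRPL19 without any of the scramble or siRNA2 arrays of SNB19 (limma adjusted p = 0.0534 to 0.17). In SF539 siRNA1 gave 2 called members, against 2.73% of all genes, 1.61% higher and 1.11% lower. They were MRPL33 with 0.41 (limma adjusted p = 0.0368) and TIMM44 with -0.38 (limma adjusted p = 0.0364). That count was 4 without either SF539 siRNA2 array, against 9.39% of all genes, and 0 when any of the other 10 arrays was left out. In SF539 siRNA2 gave 5 called members, against 15.2% of all genes, 8.66% higher and 6.5% lower. MRPL33 and MRPS27 were higher by 0.50 and 0.30, and TIMM44, MRPS12 and MRPL12 lower by -0.42, -0.54 and -0.64. The MRPS27 call was lost whichever array was left out (limma adjusted p = 0.0567 to 0.204), and that of MRPL12 without either SF539 scramble array (limma adjusted p = 0.0518 to 0.0569). MRPL12 differed by -0.89 without siRNA2 replicate 1 and by -0.40 without siRNA2 replicate 2. The TIMM44 call for siRNA2 was lost with the mean of its probe sets (limma adjusted p = 0.189) and with array weights (limma adjusted p = 0.0826). The count for siRNA2 was 17, 16 of them lower, without SF539 siRNA2 replicate 1, against 30.3% of all genes in that fit. It was 4 without SF539 siRNA2 replicate 2, against 14% of all genes, and 3 without either SF539 scramble array, against 7.2% and 9.33%. The members' median change with siRNA2 was -0.19, and it was -0.35 without replicate 1 and -0.02 without replicate 2, against -0.03, -0.04 and -0.02 over all genes.

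Between the PARK2 siRNAs themselves no member was called by limma in either line, against 6.06% of all genes in SNB19 and 2.72% in SF539. At an unadjusted p under 0.05, 3 members were higher with siRNA2 than with siRNA1 in SNB19, against 9.88% of all genes, and 9 were lower in SF539, against 11.6% of all genes. In SNB19, 22 of 24 were higher with siRNA2 than with siRNA1, against 52% of all genes, with a median difference of 0.13 against 0.01 over all genes. In 17 members both siRNA2 arrays lay above both siRNA1 arrays, against 30.6% of all genes, and only TOMM34 and TOMM70 lay wholly below, against 27.6% of all genes.

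In SF539 the wide spread within the siRNA2 pair bears on this comparison. With both siRNA2 arrays 1 of 24 members, MRPL33, was higher with siRNA2 than with siRNA1, against 44.6% of all genes, and the median difference was -0.20, against -0.03 over all genes. In 13 members both siRNA2 arrays lay below both siRNA1 arrays, against 27.9% of all genes. With siRNA2 replicate 2 left out, 8 of 24 members were higher with siRNA2 than with siRNA1, against 46.5% of all genes. The median difference was then -0.04, against -0.01 over all genes. Without replicate 1 the median was -0.32 and 15 members were called lower, against 27% of all genes called in that fit. Leaving out any of the other 11 arrays, siRNA2 replicate 2 included, gave 0 calls.

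The lines themselves were compared on the scramble arrays. With scramble siRNA 13 of 24 members were higher in SF539 than in SNB19 and 2 were lower, against 49.3% of all genes called, 24.6% higher and 24.7% lower. The members' median difference was 0.37, against 0.04 over all genes. When every array was centred on its median these medians were 0.54 and 0.20, and 16 members were called higher and 2 lower. Over all genes 56.4% were then called, and 66% of those were higher.

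Among import genes TIMM8A had 7.15 and 7.25 in SF539, against 6.15 and 6.19 in SNB19, a difference of 1.03 ± 0.09 or 2.04-fold (SE, limma adjusted p = 6.4e-06). TOMM40 had 8.74 and 8.85 in SF539, against 7.88 and 7.81 in SNB19, and differed by 0.95 ± 0.16 (SE, limma adjusted p = 0.000692). Neither gene overlapped between the lines. TIMM44 and TOMM70 were higher in SF539 by 0.34 and 0.30. The TIMM44 call was lost with the mean of its probe sets, which gave 0.21 (limma adjusted p = 0.0629), and its second probe set gave 0.07 (limma adjusted p = 0.629). The TOMM70 call was lost without SF539 scramble replicate 1 or either SNB19 scramble array (limma adjusted p = 0.0616 to 0.245), while a second TOMM70 probe set differed by 1.22.

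In the small subunit MRPS18B, one of the vertebrate paralogs of a single bacterial protein, had 9.44 and 9.72 in SF539, against 8.34 and 8.41 in SNB19. This was the largest difference of the members, 1.20 ± 0.12 or 2.30-fold (SE, limma adjusted p = 1.46e-05). MRPS31, MRPS12 and MRPS27 were higher in SF539 by 0.73, 0.43 and 0.41. In the large subunit MRPL12 had 10.52 and 10.53 in SF539, against 9.53 and 9.52 in SNB19, a difference of 1.00 ± 0.13 (SE, limma adjusted p = 0.000139). MRPL9, MRPL23, MRPL3 and MRPL28 were higher in SF539 by 0.96, 0.92, 0.86 and 0.40. The MRPL28 call was lost without SNB19 scramble replicate 2 (limma adjusted p = 0.0582).

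The members lower in SF539 were MRPL33 and MRPL49. MRPL33 had 9.91 and 9.96 in SF539, against 11.13 and 11.06 in SNB19, a difference of -1.16 ± 0.08, or 0.448 of the SNB19 level (SE, limma adjusted p = 1.81e-06). MRPL49 had 9.57 and 9.41 in SF539, against 10.23 and 10.23 in SNB19, a difference of -0.74 ± 0.09 (SE, limma adjusted p = 1e-04). These large subunit genes thus lay below SNB19 while 5 others of their subunit lay above it.

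**Figure D4:**
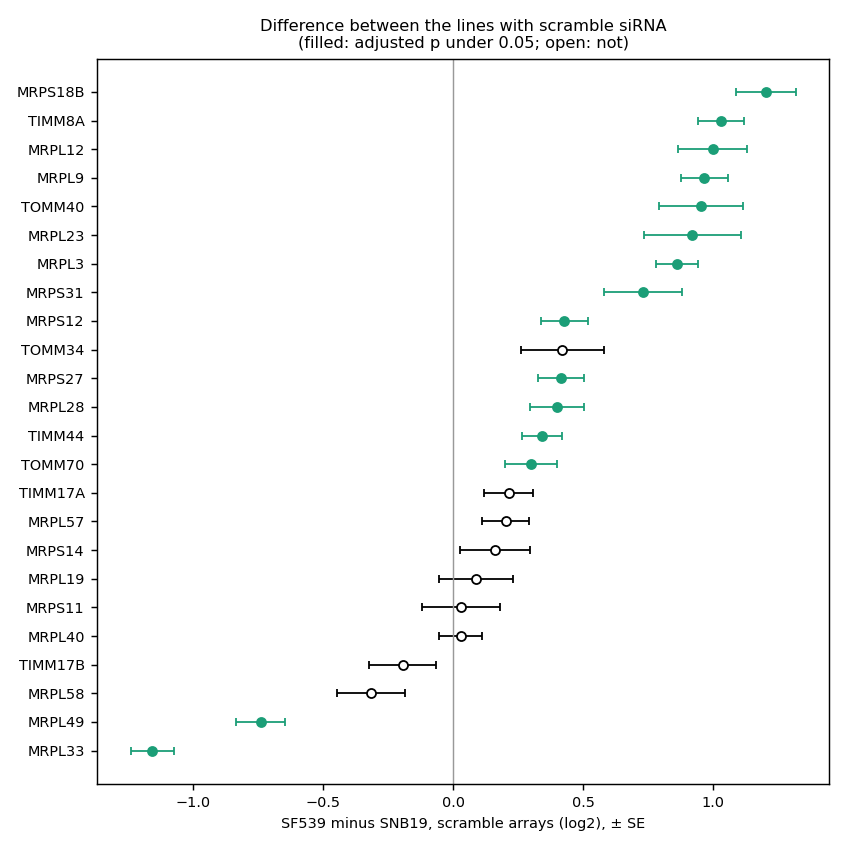
Difference between the lines with scramble siRNA (SF539 minus SNB19, log2, with SE bars) for the 24 members, ordered by size, with filled points for called members. MRPS18B lies at the top with 1.20 and MRPL33 at the bottom with -1.16.

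Of the 24 members 14 had 1 probe set and 10 had several, 38 probe sets in all. Each was also fitted on its own over all probe sets, an addition made after the values were seen. The 4 probe sets of MRPS12 gave -0.27, -0.24, -0.20 and -0.57 in SNB19 and -0.36, -0.51, -0.08 and -0.52 in SF539, so all had the same sign. In SNB19 only the first was under 0.05 (limma adjusted p = 0.03, against 0.0555 to 0.236 for the others). In SF539 the first and second were (limma adjusted p = 0.0233 and 0.0483), and the others were not (limma adjusted p = 0.149 and 0.658). With siRNA1 alone in SF539 the third gave 0.11 (limma adjusted p = 0.686). MRPS14 had probe sets that differed. Its dimmer probe set had 6.996 and 6.90 with siRNA1 and 7.07 and 6.91 with siRNA2, against 6.54 and 6.42 with scramble in SNB19, and it rose by 0.49 ± 0.08 (SE, limma adjusted p = 0.00112). In SF539 it had 5.90 and 5.89 with siRNA1 and 6.23 and 6.20 with siRNA2, against 5.53 and 5.45 with scramble, and it rose by 0.56 ± 0.08 (SE, limma adjusted p = 0.00273). The brighter MRPS14 probe set gave -0.09 and 0.06 in SNB19 and SF539. Between the lines with scramble the dimmer one gave -0.99 and the brighter one 0.16.

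**Figure D5:**
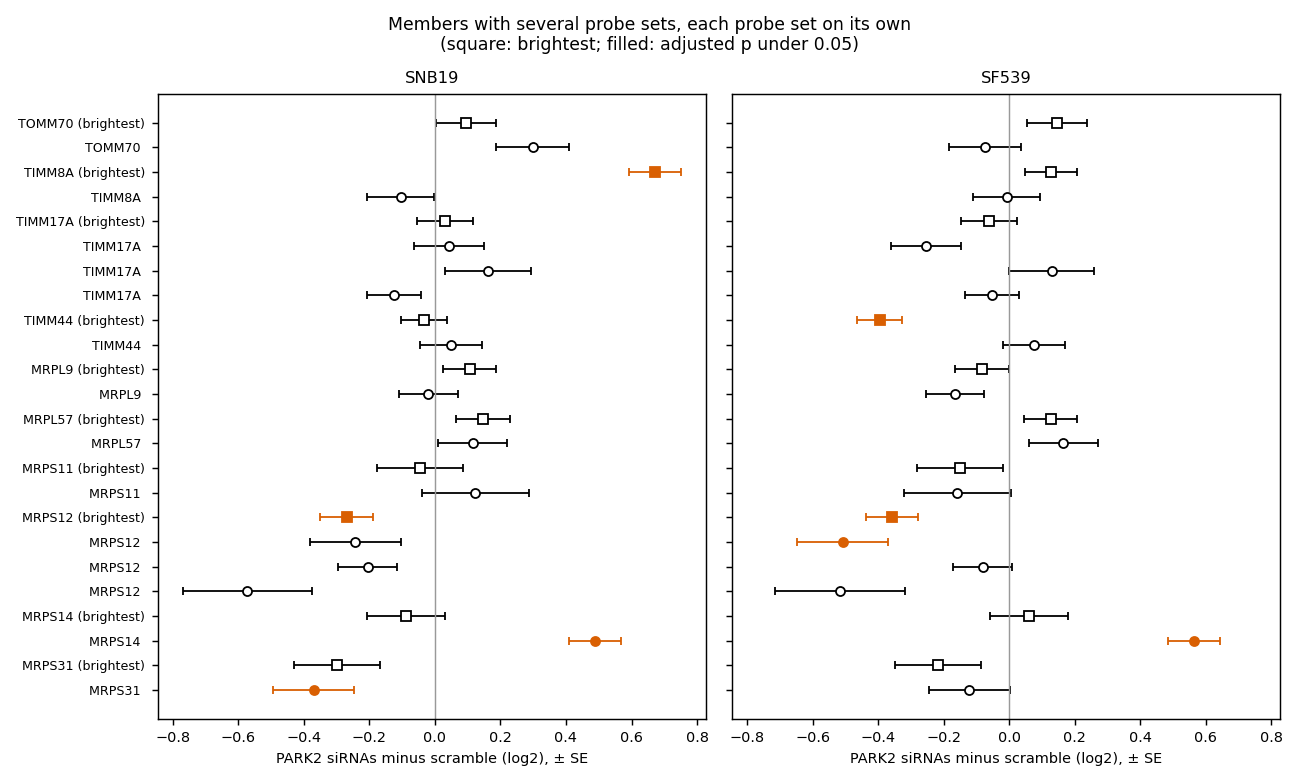
PARK2 effect (log2, with SE bars) of every probe set of the members with several probe sets, in each line. The MRPS12 probe sets all lie below 0 in both lines, while those of MRPS14, TIMM8A in SNB19 and TIMM44 in SF539 lie apart.

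Promoter sequences were looked up for the members, since nuclear genes of mitochondrial proteins often have GC-rich promoters with motifs of ETS factors, YY1 and NRF1. RefSeq promoters of GRCh38.p14, 250 bases before to 50 after the transcript start, were matched for 23 of 24 members, and MRPL23 had no entry. Motifs were searched on both strands. The ETS core CCGGAAG was present in 9 of 23 members, or 39.1%, against 16.6% of the 6831 tested genes with a promoter. The YY1 core ATGGCGG was present in 6, or 26.1%, against 10.6%. The NRF1 sequence GCATGCGC was present in 1, or 4.35%, against 4.98%, and the E box CACGTG in 2, or 8.7%, against 11.8%. A match describes these letters and is not a shown binding site.

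The 100 bases before the start are shown for 4 called members with a match there, 3 that rose in SNB19 (MRPL33, MRPL3 and MRPL19) and 1 that fell (MRPS12, at the second of its listed starts). Capitals mark the ETS core, and in MRPL19 the YY1 core read on the opposite strand. The windows are chr2:27771619-27771718 (plus strand) for MRPL33, chr3:131502972-131503071 (minus strand) for MRPL3, chr2:75646683-75646782 (plus strand) for MRPL19 and chr19:38930854-38930953 (plus strand) for MRPS12.
MRPL33: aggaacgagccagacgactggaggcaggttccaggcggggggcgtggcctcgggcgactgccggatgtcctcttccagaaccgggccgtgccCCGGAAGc
MRPL3: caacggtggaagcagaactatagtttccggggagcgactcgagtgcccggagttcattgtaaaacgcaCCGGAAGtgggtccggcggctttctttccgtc
MRPL19: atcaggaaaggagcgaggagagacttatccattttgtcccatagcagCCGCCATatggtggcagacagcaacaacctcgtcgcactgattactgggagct
MRPS12: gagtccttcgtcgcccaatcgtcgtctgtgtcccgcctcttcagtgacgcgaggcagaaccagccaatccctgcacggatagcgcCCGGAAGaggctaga
The ETS core thus stands in the windows of members that rose and of a member that fell. The other members called in SNB19, TIMM8A, MRPL19, MRPL49 and MRPS27, held none in their promoters.

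Some members share a start region with a gene read in the opposite direction. By the RefSeq starts 11 members had such a neighbour within 1000 bases, and 4 of these neighbours were measured. FAU, which encodes a ubiquitin-like protein fused to a cytosolic ribosomal protein, starts 49 bases from MRPL49. FAU differed by 0.06 with the PARK2 siRNAs in SNB19 (limma adjusted p = 0.664), where MRPL49 fell by 0.69. Between the lines with scramble FAU differed by 0.31 and MRPL49 by -0.74, so the pair lay on opposite sides of 0 there.

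Other genes of mitochondrial gene expression were counted from lists. For comparison, 15.5% of all genes were called higher and 17.4% lower in SNB19, and 5.8% and 4.01% in SF539. The 9 measured mitoribosome proteins and assembly factors under other symbols had a median change of -0.19 in SNB19 with 0 higher and 1 lower, DAP3 of the small subunit with -0.21 (limma adjusted p = 0.0441). Of 13 mitochondrial translation factors and tRNA synthetases 3 were higher and 4 lower in SNB19. TUFM, the elongation factor that brings tRNA to the ribosome, rose by 0.54 (limma adjusted p = 0.00319), and HARS2, the histidine tRNA synthetase, fell by 0.60 (limma adjusted p = 0.00132). In SF539 1 of these rose, the initiation factor MTIF2 with 0.36 (limma adjusted p = 0.0282). Of the 9 in the first list 0 were called by limma there, with 0 at an unadjusted p under 0.05. At that unadjusted p 13.1% of all genes were higher and 11.9% lower.

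Of 13 import and sorting genes under other symbols 2 were higher and 2 lower in SNB19. Over all genes the shares were 15.5% higher and 17.4% lower, and in SF539 5.8% and 4.01%. MIPEP, a presequence peptidase, rose by 0.59 (limma adjusted p = 0.00657), and MTX2, an outer membrane sorting protein, fell by 0.40 (limma adjusted p = 0.00111). GRPEL1, the exchange factor of the import motor, was lower in both lines, by -0.34 in SNB19 (limma adjusted p = 0.0483) and by -0.49 in SF539 (limma adjusted p = 0.0285). In SF539 its mean was 10.15 with siRNA1 and 9.61 with siRNA2, against 10.37 with scramble. Its fall there thus lay mostly in the siRNA2 group, the pair of arrays that stood apart. Of 14 mitochondrial proteases and chaperones 4 were higher and 3 lower in SNB19. YME1L1, an inner membrane protease, rose by 0.42 in SNB19 (limma adjusted p = 0.00123) and by 0.28 in SF539 (limma adjusted p = 0.0356), the 1 call of the list there. Of 13 genes of mitochondrial DNA expression and its nuclear regulators 2 were higher and 3 lower in SNB19. ESRRA, a nuclear receptor that regulates mitochondrial genes, fell by 0.61 in SNB19 (limma adjusted p = 0.000175) and by 0.29 in SF539 (limma adjusted p = 0.0362).

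The cytosolic ribosome and the nuclear-encoded subunits of oxidative phosphorylation were set beside the members. Of 53 cytosolic ribosomal protein genes 34 were higher and 0 lower in SNB19, with a median of 0.26, against the members' 5 higher and 2 lower and median of 0.03. Over all genes 15.5% were higher and 17.4% lower. At an unadjusted p under 0.05 in limma the counts of the 53 were 41 and 0, against 19.6% and 21.9% of all genes. In SF539 limma called 0 of the 53, with a median of 0.01 and 4 at an unadjusted p under 0.05. Over all genes 9.82% were called there, and 13.1% were higher and 11.9% lower at that unadjusted p. Of 56 nuclear genes of oxidative phosphorylation subunits 10 were higher and 1 lower in SNB19, against 15.5% and 17.4% of all genes. Their median change was 0.08, and SDHC with 0.60 and ATP5MC2 with 0.59 were among the higher. In SF539 limma called 0 of the 56, with 3 at an unadjusted p under 0.05, beside the same SF539 shares of all genes.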

How the data were processed

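The values are the authors' deposited log2 expression values, 1 per probe set and array, from an Affymetrix human array. Per the submitters' processing notes the software was Partek. How background was corrected and values normalized and summarised is not given in the sources used here. The members and lists were chosen with earlier results of these data known.

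Of 16376 probe sets 14038 had 1 gene, 792 several and 1546 none in the platform annotation. Those with 1 gene were used, and 14028 were matched to RefSeq names (GRCh38.p14) by Entrez identifier. TOMM20 was left out by the rule, and PARK2 is not reported here.

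One limma 3.58.1 fit (lmFit and eBayes, R 4.3.3) held all 12 arrays with 6 group means, giving 6 residual and 3.65 prior degrees of freedom. Tests were two-sided, with Benjamini-Hochberg adjustment over 8545 genes at 0.05, and errors are standard errors of the fit. The fit was tested on simulated data. Differences between the siRNAs and between lines came from the same fit, and each line's scramble arrays serve both siRNAs.

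All TIMM and TOMM genes could be named, as could the 6 largest called changes in each direction in the MRPL and MRPS families (4 for siRNA2 against siRNA1 and for the difference between lines), the MRPS18 paralogs, members whose probe sets disagree, and up to 4 called genes per list by smallest p. Other members named with values were chosen after their values were seen, as were FAU, IFI27 and the single-siRNA calls. The lists were mitoribosome proteins and assembly factors under other symbols, mitochondrial translation factors and tRNA synthetases, import, sorting and processing genes, mitochondrial proteases and chaperones, mitochondrial DNA expression, cytosolic ribosomal proteins and oxidative phosphorylation subunits, beside markers of glia, leukocytes, endothelium and epithelium.

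Alternatives were a replicate block, median centring, quantile normalization, array weights, a trended robust prior, every probe set on its own, the arrays of 1 line alone, the mean of probe sets, leaving out the dimmest 40% of genes, and omission of each array. In the last case the remaining replicate is assumed to vary as much as other groups do. Over 15 pairs of groups the correlation of same-numbered deviations lay between -0.18 and 0.11, so no strong shared shift was seen. Arrays of the same number may still have been handled together, which such correlations cannot exclude. Plots used matplotlib 3.10.9.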

Additional observations from a re-analysis of the deposited data

Results flagged for a closer look

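For 5 of 24 members the test of the difference itself called the PARK2 effect different between the lines, against 19.1% of all genes. The values are the effect in SF539 minus the effect in SNB19 on the log2 scale, with 2 arrays per group and adjusted p-values from limma. TIMM8A had -0.54 (adjusted p = 0.00686), with effects of 0.13 in SF539 and 0.67 in SNB19. MRPL3 had -0.50 (adjusted p = 0.00673), with effects of 0.12 in SF539 and 0.62 in SNB19. MRPS27 had -0.39 (adjusted p = 0.03), with effects of 0.32 in SF539 and 0.72 in SNB19. TIMM44 had -0.36 (adjusted p = 0.023), with effects of -0.40 in SF539 and -0.03 in SNB19. MRPL49 had 0.55 (adjusted p = 0.00906), with effects of -0.14 in SF539 and -0.69 in SNB19. The calls of TIMM8A, MRPS27, TIMM44 and MRPL49 were lost under some alternatives, as given above. Second probe sets of TIMM8A and TIMM44 had the opposite sign, with 0.10 and 0.03.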

How the results depend on the processing

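Counts of called members are given first for the alternatives and then as the range when each array was left out in turn. For the PARK2 siRNAs against scramble in SNB19 the count of 7 became 11 with array weights and 11 with that line's arrays alone, and 5 to 11 with an array left out, the 11 without either SF539 siRNA2 array, where 41.6% of all genes were called. For SF539 the count of 4 became 0 with that line's arrays alone, and 2 to 11. For siRNA1 in SNB19 the 7 became 5 to 10. For siRNA2 in SNB19 the 6 became 11 with median centring, 10 with array weights and 10 with that line's arrays alone, and 5 to 11, the 11 again without either SF539 siRNA2 array. For siRNA1 in SF539 the 2 became 0 with the replicate block, 1 with quantile normalization, 1 with median centring, 1 with the mean of probe sets and 0 with that line's arrays alone, and 0 to 4. For siRNA2 in SF539 the 5 became 3 with array weights and 0 with that line's arrays alone, and 3 to 17. For siRNA2 against siRNA1 in SNB19 the 0 became 1 without the dimmest 40% of genes, 1 with the trended robust prior, 5 with array weights and 4 with that line's arrays alone, and 0 to 5, the 5 without either SF539 siRNA2 array. In SF539 the 0 became 1 without the dimmest 40% of genes and 2 with the trended robust prior, and 0 to 15. For the difference of the PARK2 effect between lines the 5 became 10 with median centring, 3 with the mean of probe sets and 9 with array weights, and 3 to 11. For the lines with scramble the 15 became 16 to 18 under the other alternatives, and 13 to 19. The cause of these differences was not tested. Over all genes the share called for the PARK2 siRNAs in SNB19 was 42.9% with array weights and 42.7% with that line alone, against 32.8%. For siRNA2 there it was 33.6% with median centring, 41.2% with array weights and 40.1% with that line alone, against 29.7%. For siRNA2 against siRNA1 there it was 16.7% with array weights and 13.1% with that line alone, against 6.06%. Without the dimmest 40% of genes it was 11.1%, and with the trended robust prior 6.96%. In SF539 those 2 shares were 6.94% and 4.39%, against 2.72%. For the difference of effects it was 24.5% with median centring, 21.5% with array weights and 18.5% with the mean of probe sets, against 19.1%. For siRNA2 in SF539 it was 4.1% with array weights and 3.6% with that line alone, against 15.2%. For siRNA1 in SF539 it was 2.01% with the replicate block and 0.0117% with that line alone, against 2.73%. Between the lines with scramble it lay between 48.9% with the replicate block and 68.6% without the dimmest 40% of genes, against 49.3%.

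With the replicate block, although same-numbered arrays showed no strong shared shift, the counts were 7 in SNB19 and 4 in SF539 for the PARK2 siRNAs. Median centring moved the median change of all genes to 0.12 in SNB19, -0.06 in SF539, -0.18 for the difference of effects and 0.20 between lines, and members called were then 8 higher and 1 lower in SNB19, 1 higher and 3 lower in SF539 and 0 higher and 10 lower for the difference of effects. Over all genes 35.9% were called after centring in SNB19, 10.2% in SF539 and 24.5% for the difference of effects. The share of higher genes among all called was 68.3% in SNB19 after centring, against 47.1% before, and 46% in SF539, against 59.1%. For the difference of effects it was 27.6%, against 56.5%.

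For both PARK2 siRNAs together MRPL3, MRPL33, MRPL49, MRPS27 and TIMM8A kept their SNB19 calls in all 20 alternatives, while TIMM8A lost its call for siRNA1 alone with the mean of probe sets (limma adjusted p = 0.0661). Fits of every probe set on its own were added after seeing the data. The second probe set of TIMM8A had the opposite sign, with -0.105 for both siRNAs, -0.0704 for siRNA1 and -0.139 for siRNA2 in SNB19, 0.0966 for the difference of effects and -0.0822 between lines. That of TIMM44 had 0.0766 for both siRNAs, 0.0912 for siRNA1 and 0.062 for siRNA2 in SF539, and 0.0284 for the difference of effects. None of the other alternatives turned the sign of a called member. The deposited values carry no detection call, so how far dim probe sets stand above background is not known.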

Other observations

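Beside the pair of MRPL49 and FAU, 3 other neighbours with a start near a member were measured. PPP1R10, a regulator of protein phosphatase, starts 597 bases from MRPS18B and fell by 0.34 in SNB19 with the PARK2 siRNAs (limma adjusted p = 0.00968), where MRPS18B differed by -0.05, and it differed by -0.08 in SF539 (limma adjusted p = 0.597). PQBP1, a splicing-related protein, starts 162 bases from TIMM17B and fell by 0.50 in SF539 (limma adjusted p = 0.00457), where TIMM17B differed by -0.10, and it differed by -0.14 in SNB19 (limma adjusted p = 0.208). OAZ3, an antizyme of ornithine decarboxylase whose start overlaps that of MRPL9, differed by -0.10 in SNB19 and -0.05 in SF539 and was not called in either (limma adjusted p = 0.549 and 0.834). Its group means were only 3.54 to 4.06, below the lower quartile of all gene values of 4.35, so a change in it could be missed. These neighbours were chosen after their values were seen.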
